A study of Danio rerio with 8 samples.

Results

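Glycolysis in the larval zebrafish heart was followed through 38 genes chosen by name. They were selected facilitative glucose transporters, every enzyme from hexokinase to pyruvate kinase, and the lactate dehydrogenases. Of these, 37 were rows of the normalized count table of 21286 genes (slc2a3a was not analysed here), and 33 had a mean value of at least 10 over the 8 libraries and were tested. The libraries came from epicardial cells (EpiCs), the outer mesothelial layer of the heart, and from cardiomyocytes (CMs), its muscle cells, sorted by fluorescence from hearts dissected at 96 hours post fertilization (hpf). EpiCs and CMs of tcf21+/+ hearts and of tcf21-/- hearts made 4 groups with 2 libraries each, to ask what the loss of the epicardial transcription factor Tcf21 changes in either cell type.

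All hearts carried a nuclear EGFP reporter under tcf21 regulatory sequence and a membrane mCherry reporter under the cardiomyocyte promoter myl7. CMs were mCherry positive and EGFP negative, whereas cells positive for both colours were kept with the EpiCs, so that an EpiC library may hold cells with myl7 activity. The tcf21-/- larvae carried a frameshift allele, came from crosses of heterozygotes and were picked by missing head muscles and by a heart still largely covered by EpiCs, whereas tcf21+/+ larvae came from crosses of their tcf21+/+ siblings. The effects of genotype and of parents cannot be told apart here. Each library pooled hearts of many larvae. Whether libraries of the same replicate number shared hearts was not stated, so that p-values measure only the spread between libraries. The paper reports several sorting sessions, and which session gave which library was not stated either. In bulk libraries, fewer cells of a type and less RNA per cell cannot be told apart.

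Glycolysis splits glucose into pyruvate. Glucose enters through transporters of the Slc2a family, is trapped by hexokinase, committed by phosphofructokinase, cleaved by aldolase, and carried through a row of triose enzymes to pyruvate kinase, which gives ATP. Lactate dehydrogenase then turns pyruvate into lactate and restores NAD+. Teleosts kept duplicates of many of these enzymes from a genome duplication, so that a mammalian muscle, brain or liver isozyme often has a pair of zebrafish paralogues, written a and b. The vertebrate heart is known for a high energy demand that shifts from glycolysis toward fatty acids as it matures in mammals.

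The deposited values are gene read counts divided by a factor for each library and are called values below. Their totals ran from 8.81 M to 10.13 M per library. One read was worth between 0.776 and 0.898 in the EpiC libraries and between 0.974 and 1.573 in the CM libraries, which put the estimated reads at 9.86 M to 11.4 M in EpiCs and 6.44 M to 9.39 M in CMs, lowest in tcf21+/+ CM replicate 1. The transcript of tcf21 itself was at 1600 and 1851 in EpiCs of tcf21+/+ and at 1636 and 1454 in those of tcf21-/- hearts, so that its level did not separate the genotypes there (log2 fold change -0.16 ± 0.54, limma adjusted P = 0.984). A frameshift need not lower it. In CMs it was low, at 80 and 28 in tcf21+/+ and 5 and 12 in tcf21-/- hearts. That difference did not overlap but was not called (-2.46 ± 0.54, limma adjusted P = 0.137). The summed values of 7 EpiC markers were 25591 to 29123 in EpiCs and 795 to 1158 in CMs. Those of 8 CM markers were 84569 to 90386 in CMs and 7724 to 12534 in EpiCs, with none of the 8 at 0. In EpiCs, myh6, ttn.1, ttn.2, nppa and myh7 stood at 2.27% to 18.5% of their CM mean. The markers myl7, tnnt2a and cmlc1 stood at 46.1% to 55.4%. Whether level reads, described below for some members, shaped these percentages was not tested. Fast skeletal muscle markers summed to 1833 to 2250 in tcf21+/+ EpiCs, 2974 to 4122 in tcf21-/- EpiCs and 596 to 828 in CMs, where tnnt3a was at 0 in every library and pvalb2 at 193 to 462, against 11 to 79 in EpiCs. Macrophage and leukocyte markers summed to 403 and 404 in tcf21+/+ CMs and to 1168 and 1724 in tcf21-/- CMs, against 19 to 44 in EpiCs.

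Glycolysis genes stood far higher in CMs than in EpiCs in both genotypes. In tcf21+/+ hearts, 26 of 33 members tested were lower in EpiCs and 1, hk2, was higher (limma on log2(value + 1), adjusted P under 0.05 with Benjamini-Hochberg adjustment over 16077 genes, and an absolute log2 fold change of at least 0.59). Over all genes tested, 18.8% were called lower and 22.9% higher in the same comparison, 41.7% in either direction. The libraries of EpiCs and CMs did not overlap for 2 members higher and 30 lower in EpiCs, against 37.7% and 31.5% of all genes. In tcf21-/- hearts, 27 members were lower and 1, again hk2, was higher, against 18% and 21% of all genes (38.9% in either direction), and the libraries did not overlap for 3 members higher and 28 lower, against 39.7% and 35.2%. The median log2 fold change of the members, EpiC over CM, was -2.09 in tcf21+/+ and -1.82 in tcf21-/- hearts, where the medians of all genes were 0.11 and 0.09. The comparisons in the 2 genotypes share no library, but they come from 1 fit with a common estimate of the spread of each gene. Their calls are therefore not independent. In both genotypes, 26 members were called lower in EpiCs, as were 14.7% of all genes. Across the 8 libraries, every CM value lay above every EpiC value for 28 of the 37 members in the table, the reverse held for hk2, and the other 8 overlapped. All those without overlap were among the 33 members tested, and of all genes tested 22.9% lay higher in CMs and 26.3% higher in EpiCs by the same measure.

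**Figure D1:**
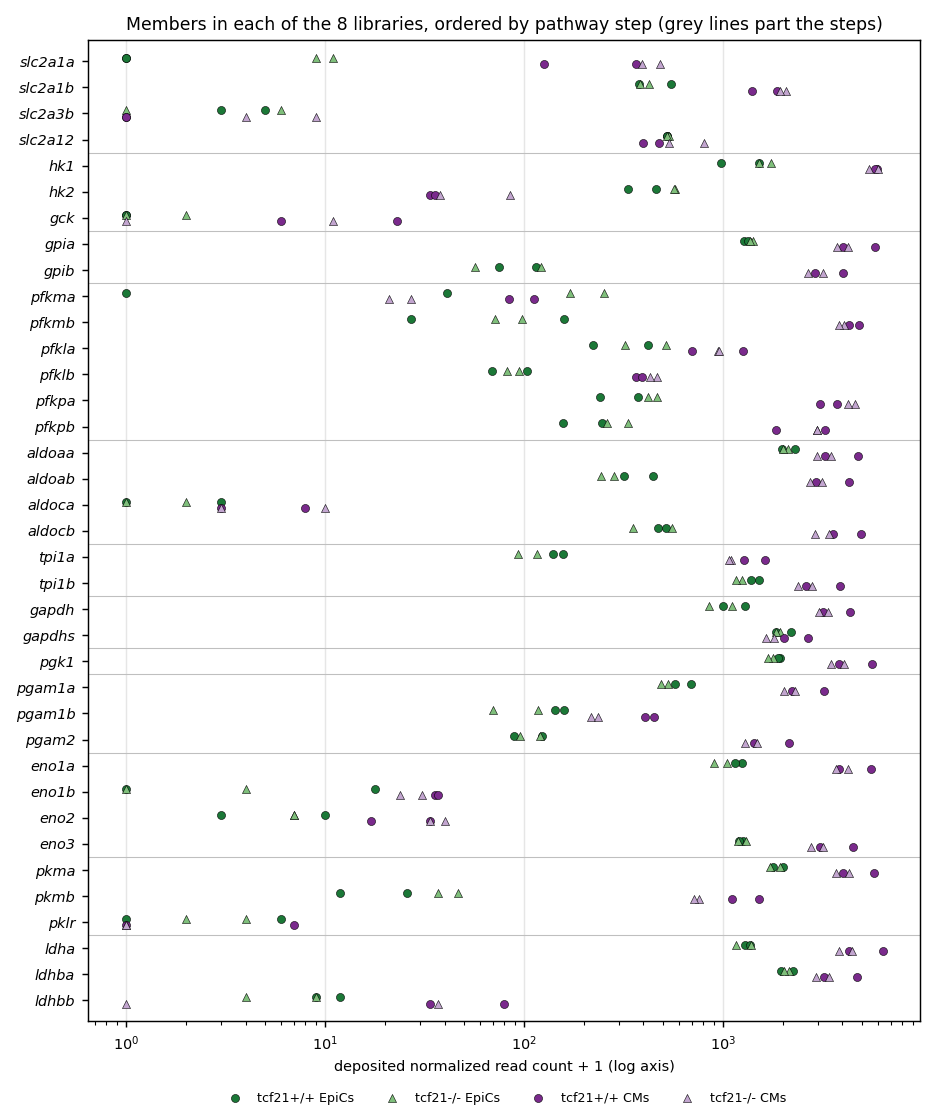
Deposited normalized read count + 1 (log axis) of the 37 members in each of the 8 libraries, by pathway step. Green marks are EpiC and purple marks CM libraries, with circles for tcf21+/+ and triangles for tcf21-/-; for 28 members all purple marks lie to the right of all green ones, and for hk2 to the left.

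The summed value of each of the 12 steps was higher in all CM libraries than in any EpiC library. The glucose transport step held 4 chosen transporters, and other sugar transporters, given below, summed higher in EpiCs. Pooled over the genotypes, the ratio of the CM to the EpiC mean was 9.66 for phosphofructokinase, 5.46 for phosphoglycerate mutase and 5.30 for glucose-6-phosphate isomerase. It was 3.67 for aldolase, 3.34 for enolase, 3.05 for hexokinase, 2.90 for pyruvate kinase, 2.88 for triosephosphate isomerase and 2.81 for glucose transport. It was 2.45 for lactate dehydrogenase, 2.33 for phosphoglycerate kinase and 1.83 for glyceraldehyde-3-phosphate dehydrogenase. The committing step had the highest ratio in both genotypes, at 11.7 in tcf21+/+ and 8.30 in tcf21-/- hearts. Paralogues within a step are not corrected for length in these sums. As described below, reads of some members varied less between CM libraries than counting alone would give. They were aldoaa, aldoab, eno3, pkma, tpi1b, ldhba and pgk1, all in steps with ratios from 2.33 to 3.67, and pgam1a and pgam2 in phosphoglycerate mutase. No gene of phosphofructokinase, glucose-6-phosphate isomerase, hexokinase, glucose transport or glyceraldehyde-3-phosphate dehydrogenase was among them. Some genes of these steps were nearly as level in CMs, however. Their highest estimated reads were 1.04 times the lowest for gpia, 1.09 times for gpib and 1.13 times for gapdh, against 1.46 times for the library totals. Whether such level reads shaped the order of the steps was not tested. The order of the lower ratios differed by genotype, and that of glucose transport was 2.34 in tcf21+/+ and 3.30 in tcf21-/- hearts.

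Of the glucose transporters, slc2a1a and slc2a1b, the paralogues of GLUT1, were both lower in EpiCs. The gene slc2a1a (ENSDARG00000001437, chromosome 23, 22200467 to 22212635, GRCz11) was at 0 in both tcf21+/+ EpiC libraries, at 8 and 10 in tcf21-/- EpiCs, at 126 and 365 in tcf21+/+ CMs and at 394 and 484 in tcf21-/- CMs. Set against a floor of 3 reads per library, it was at least 97.8-fold higher in tcf21+/+ CMs than in tcf21+/+ EpiCs, or at least 50.2-fold without tcf21+/+ CM replicate 2, with no overlap in either genotype. For slc2a1b the values were 546 and 379 in tcf21+/+ EpiCs, 426 and 382 in tcf21-/- EpiCs, 1398 and 1866 in tcf21+/+ CMs, and 2078 and 1935 in tcf21-/- CMs. Its log2 fold change, EpiC over CM, was -1.83 ± 0.23 (SE, n = 2 libraries a group, limma adjusted P = 0.000374) in tcf21+/+ and -2.31 ± 0.23 in tcf21-/- hearts. The paralogue of GLUT12, slc2a12, was the transporter that did not follow. Its values ran from 524 to 537 in EpiCs and from 396 to 809 in CMs, with log2 fold changes of 0.27 ± 0.25 and -0.31 ± 0.25 (limma adjusted P = 0.412 and 0.36). A paralogue of GLUT3, slc2a3b, was at 0 to 8, below the level tested.

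Hexokinase showed opposite differences of its paralogues. The values of hk1, the hexokinase of most tissues, were 1520 and 975 in tcf21+/+ EpiCs, 1525 and 1747 in tcf21-/- EpiCs, 5930 and 5832 in tcf21+/+ CMs and 6045 and 5464 in tcf21-/- CMs, with a log2 fold change of -2.27 ± 0.21 (limma adjusted P = 6.77e-05) in tcf21+/+ hearts. The values of hk2, named for the insulin-responsive muscle isozyme of mammals, were 334 and 461 in EpiCs of tcf21+/+ and 574 and 570 in EpiCs of tcf21-/- hearts, but 33 and 35 in tcf21+/+ CMs and 84 and 37 in tcf21-/- CMs. Every EpiC library exceeded every CM library, and the log2 fold changes were 3.49 ± 0.45 (limma adjusted P = 0.000375) and 3.33 ± 0.45 (limma adjusted P = 0.000525). No other member was called higher in EpiCs in either genotype. Glucokinase, gck, reached at most 22.

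The isomerase that converts glucose-6-phosphate to fructose-6-phosphate has the paralogues gpia and gpib. In tcf21+/+ hearts gpia was at 1285 and 1341 in EpiCs and 5807 and 4018 in CMs, and in tcf21-/- hearts at 1420 and 1371 in EpiCs and 4265 and 3747 in CMs. The paralogue gpib differed much more, with 114 and 74 in tcf21+/+ EpiCs, 121 and 56 in tcf21-/- EpiCs, 4042 and 2920 in tcf21+/+ CMs and 3190 and 2682 in tcf21-/- CMs. The CM mean of gpib was 37.03 times the EpiC mean in tcf21+/+ and 33.18 times in tcf21-/- hearts, against 3.74 and 2.87 times for gpia. The log2 fold changes of gpib were -5.21 ± 0.38 (limma adjusted P = 2.65e-05) and -5.13 ± 0.38 (limma adjusted P = 3.06e-05).

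Phosphofructokinase, which commits fructose-6-phosphate to glycolysis, is encoded by muscle (pfkma, pfkmb), liver (pfkla, pfklb) and platelet (pfkpa, pfkpb) paralogues. The muscle paralogue pfkmb was at 159 and 26 in tcf21+/+ EpiCs, 71 and 97 in tcf21-/- EpiCs, 4868 and 4321 in tcf21+/+ CMs and 4065 and 3828 in tcf21-/- CMs, a log2 fold change of -6.13 ± 0.66 (limma adjusted P = 0.00015) in tcf21+/+ hearts. Its mean in CMs was 49.67 and 46.98 times that in EpiCs in the 2 genotypes. Next came the platelet pair. The values of pfkpa were 376 and 240, and 418 and 468, in tcf21+/+ and tcf21-/- EpiCs, and 3078 and 3762, and 4631 and 4254, in the CMs of the same genotypes, with log2 fold changes of -3.50 ± 0.23 and -3.32 ± 0.23 (limma adjusted P = 1.98e-05 and 2.5e-05). Those of pfkpb were 246 and 157 in tcf21+/+ EpiCs, 260 and 333 in tcf21-/- EpiCs, 1843 and 3253 in tcf21+/+ CMs and 2970 and 2980 in tcf21-/- CMs.

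The liver paralogues of phosphofructokinase differed less. The values of pfkla were 419 and 221 in tcf21+/+ EpiCs, 321 and 518 in tcf21-/- EpiCs, 698 and 1264 in tcf21+/+ CMs and 947 and 961 in tcf21-/- CMs, with log2 fold changes of -1.62 ± 0.39 and -1.22 ± 0.39 (limma adjusted P = 0.00983 and 0.0356). In estimated reads without scaling, pfkla was no longer called in tcf21+/+ hearts (log2 fold change -0.99, limma adjusted P = 0.198). Its partner pfklb stood at 68 and 103, and 81 and 94, in tcf21+/+ and tcf21-/- EpiCs, against 365 and 393, and 468 and 428, in the CMs. The muscle paralogue pfkma behaved unlike the other phosphofructokinase genes. It was at 0 and 40 in tcf21+/+ EpiCs, 169 and 252 in tcf21-/- EpiCs, 83 and 112 in tcf21+/+ CMs and 26 and 20 in tcf21-/- CMs, so that CMs were higher in tcf21+/+ and lower in tcf21-/- hearts. Neither difference was called, with log2 fold changes of -3.93 ± 1.41 (limma adjusted P = 0.0515) and 3.12 ± 1.41 (limma adjusted P = 0.114).

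Aldolase cleaves the hexose bisphosphate into trioses. The muscle-type paralogue aldoaa was at 1981 and 2300 in tcf21+/+ EpiCs, 2129 and 2001 in tcf21-/- EpiCs, 4805 and 3277 in tcf21+/+ CMs and 3495 and 2979 in tcf21-/- CMs. Its partner aldoab was at 446 and 320, and 283 and 243, in tcf21+/+ and tcf21-/- EpiCs, and at 4302 and 2948, and 3161 and 2734, in the CMs. The brain-type paralogue aldocb was at 516 and 471, and 557 and 352, in EpiCs and at 4964 and 3602, and 3420 and 2917, in CMs of the same genotypes. Thus aldoab and aldocb differed by log2 fold changes of -3.23 ± 0.25 and -3.10 ± 0.25 in tcf21+/+ hearts, and aldoaa by -0.89 ± 0.20 (limma adjusted P = 0.00685). The last did not pass in several alternatives and was at -0.26 in estimated reads without scaling. The other brain-type paralogue, aldoca, reached at most 9.

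Triosephosphate isomerase, which interconverts both trioses, followed the same division. The values of tpi1a were 157 and 139 in tcf21+/+ EpiCs, 93 and 116 in tcf21-/- EpiCs, 1633 and 1279 in tcf21+/+ CMs and 1102 and 1072 in tcf21-/- CMs (log2 fold change -3.28 ± 0.24 in tcf21+/+, limma adjusted P = 2.92e-05). For tpi1b they were 1392 and 1525, and 1248 and 1161, in EpiCs, and 3894 and 2632, and 2799 and 2387, in CMs (log2 fold change -1.14 ± 0.20 in tcf21+/+, limma adjusted P = 0.00221). In estimated reads without scaling, tpi1b fell to -0.50 in tcf21+/+ hearts and was no longer called.

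Glyceraldehyde-3-phosphate dehydrogenase makes the first NADH of the pathway. Its main paralogue gapdh was at 1296 and 998, and 1109 and 848, in tcf21+/+ and tcf21-/- EpiCs, and at 4355 and 3181, and 3363 and 3037, in the CMs, a log2 fold change of -1.71 ± 0.22 in tcf21+/+ hearts (limma adjusted P = 0.000392). The paralogue gapdhs, related to the sperm isozyme of mammals, was not called in either genotype. It ran from 1851 to 2212 in EpiCs and from 1643 to 2693 in CMs. Its log2 fold changes were -0.21 ± 0.18 and 0.13 ± 0.18 (limma adjusted P = 0.39 and 0.596). In tcf21-/- hearts both EpiC values of gapdhs (1939 and 1851) lay above both CM values (1815 and 1643). In estimated reads without scaling, every EpiC library (2297 to 2463) exceeded every CM library (1591 to 1919). These reads are not corrected for depth, and EpiC libraries held more reads in total, 9.86 M to 11.4 M against 6.44 M to 9.39 M. They therefore do not show gapdhs to be higher in EpiCs. Phosphoglycerate kinase, pgk1, which makes ATP in the next step, was at 1947 and 1889, and 1797 and 1689, in EpiCs and at 5621 and 3842, and 4079 and 3503, in CMs (log2 fold change -1.28 ± 0.19 in tcf21+/+, limma adjusted P = 0.00089).

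Phosphoglycerate mutase moves the phosphate of phosphoglycerate. Its muscle-type gene pgam2 stood at 122 and 88 in tcf21+/+ EpiCs, 120 and 95 in tcf21-/- EpiCs, 2145 and 1440 in tcf21+/+ CMs and 1492 and 1290 in tcf21-/- CMs. The log2 fold change was -4.07 ± 0.29 (limma adjusted P = 2.48e-05) in tcf21+/+ and -3.69 ± 0.29 in tcf21-/- hearts. The brain-type paralogue pgam1a was at 577 and 695, and 532 and 487, in EpiCs and at 3245 and 2239, and 2308 and 2031, in CMs, and its log2 fold change was -2.09 ± 0.22 in both genotypes. The values of pgam1b were 159 and 142 in tcf21+/+ EpiCs, 117 and 69 in tcf21-/- EpiCs, 404 and 450 in tcf21+/+ CMs and 218 and 234 in tcf21-/- CMs. It was called lower in EpiCs in both genotypes (-1.50 ± 0.35 and -1.32 ± 0.35), but not in estimated reads without scaling.

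Enolase forms phosphoenolpyruvate. The values of eno1a, the broadly expressed alpha form, were 1247 and 1155, and 1047 and 906, in tcf21+/+ and tcf21-/- EpiCs, and 5590 and 3826, and 4248 and 3723, in the CMs (log2 fold change -1.95 ± 0.20 in tcf21+/+, limma adjusted P = 0.000122). The muscle form eno3 was at 1260 and 1207, and 1302 and 1194, in EpiCs, and at 4513 and 3095, and 3197 and 2790, in CMs (-1.60 ± 0.20, limma adjusted P = 0.000302). The neuronal form eno2 was low everywhere, at 9 and 2, and 6 and 6, in EpiCs and at 16 and 33, and 33 and 39, in CMs. It was called only in tcf21-/- hearts (-2.40 ± 0.83, limma adjusted P = 0.0484, against -2.13 ± 0.83 and 0.0682 in tcf21+/+), and its interaction of genotype and cell type was not called (limma adjusted P = 0.98). A further alpha paralogue, eno1b, ran from 0 to 17 in EpiCs and from 23 to 36 in CMs.

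Pyruvate kinase, the second ATP-producing step, is encoded by pkma and pkmb and by the liver and red cell gene pklr, which reached at most 6. The values of pkma were 1792 and 2001, and 1937 and 1724, in tcf21+/+ and tcf21-/- EpiCs, and 5782 and 4014, and 4315 and 3715, in the CMs (log2 fold change -1.35 ± 0.19 in tcf21+/+, limma adjusted P = 0.000718). By contrast, pkmb (ENSDARG00000099860) stood at 11 and 25 in tcf21+/+ EpiCs, 46 and 36 in tcf21-/- EpiCs, 1526 and 1114 in tcf21+/+ CMs and 762 and 713 in tcf21-/- CMs. Its CM mean was 73.33 times the EpiC mean in tcf21+/+ and 17.99 times in tcf21-/- hearts, with log2 fold changes of -6.21 ± 0.44 (limma adjusted P = 2.44e-05) and -4.15 ± 0.44 (limma adjusted P = 0.00014).

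Lactate dehydrogenase stands at the end of the pathway. The values of ldha, the muscle-type subunit, were 1293 and 1368 in tcf21+/+ EpiCs, 1386 and 1159 in tcf21-/- EpiCs, 6359 and 4334 in tcf21+/+ CMs and 4479 and 3839 in tcf21-/- CMs, a log2 fold change of -1.98 ± 0.20 (limma adjusted P = 0.000122) in tcf21+/+ hearts. For ldhba, a heart-type subunit, they were 1969 and 2248, and 2146 and 2038, in EpiCs, and 4730 and 3222, and 3427 and 2940, in CMs. This was a log2 fold change of -0.89 ± 0.20 (limma adjusted P = 0.00663) in tcf21+/+ and -0.60 ± 0.20 (limma adjusted P = 0.04) in tcf21-/- hearts, with no overlap of the cell types. Like aldoaa, ldhba was at -0.26 in estimated reads without scaling. The other heart-type paralogue, ldhbb, ran from 3 to 11 in EpiCs and from 0 to 79 in CMs and was not called.

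**Figure D2:**
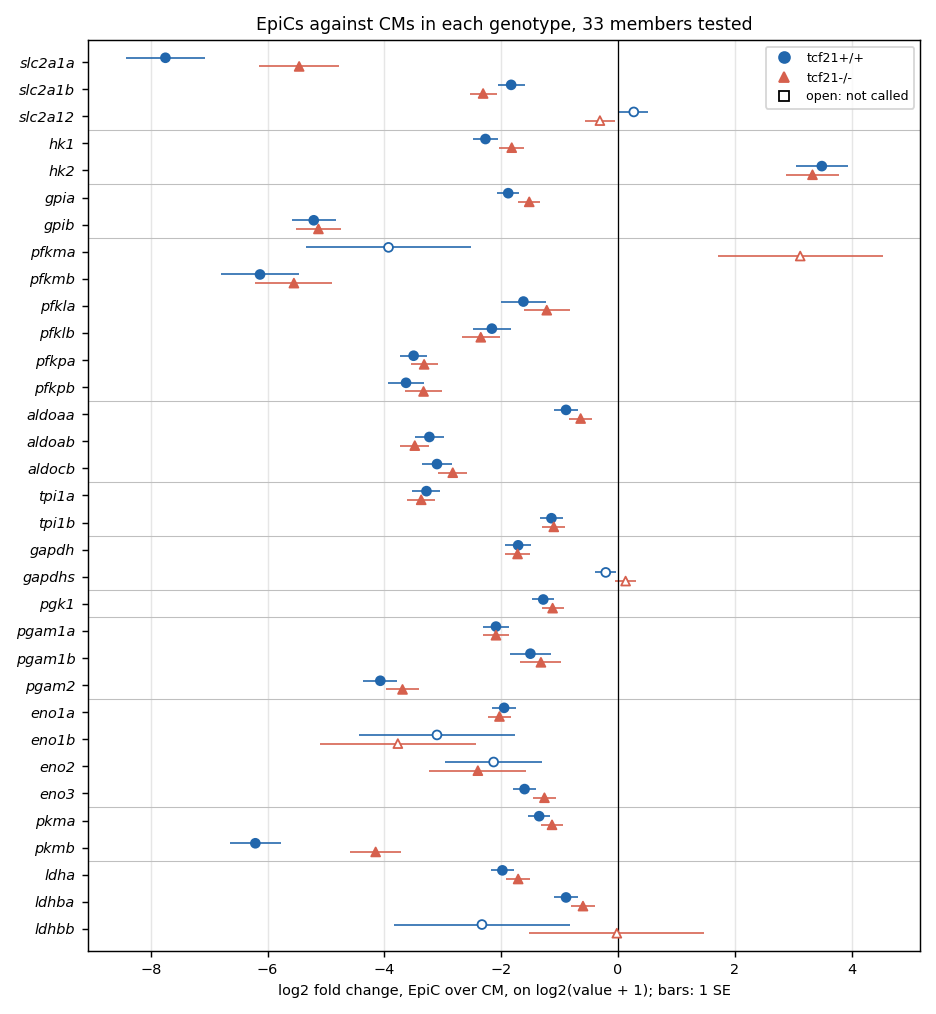
Log2 fold change of EpiCs over CMs on log2(value + 1) for the 33 members tested, with bars of 1 SE, in tcf21+/+ (circles) and tcf21-/- (triangles) hearts. Filled marks were called, and hk2, at 3.49 and 3.33, is the only filled mark right of 0; the value of slc2a1a in tcf21+/+ rests on EpiC libraries at 0 and is no measured size.

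A change of scaling moved all genes together. In estimated reads without scaling, the median log2 fold change of all genes, EpiC over CM, was 0.74 in tcf21+/+ hearts, against 0.11 in the deposited values, and the median of the members was -1.46 against -2.09. In tcf21-/- hearts these medians were 0.45 against 0.09 and -1.45 against -1.82. Of the members called in the deposited values, 22 of 27 in tcf21+/+ and 23 of 28 in tcf21-/- were also called in estimated reads, with 1 higher and 21 lower, and 1 higher and 22 lower. Of all genes, 5419 were then called higher and 1667 lower in tcf21+/+ hearts, against 3679 and 3026 in the deposited values. The members lost were pfkla, aldoaa, tpi1b, pgam1b and ldhba in tcf21+/+ hearts and pfkla, aldoaa, pgam1b, eno2 and ldhba in tcf21-/- hearts. CM markers in the EpiC libraries moved with the same contrast, and their part in the EpiC values of the members was not tested.

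The makeup of a step also differed between the cell types. Shares of a paralogue in the summed value of its step are compared between libraries only, since transcript lengths were not available to compare paralogues. In each of the 11 steps with several paralogues at least 1 share did not overlap between EpiC and CM libraries. Shares were not computed for paralogues outside the pathway, so this count is not read as particular to glycolysis. Of all genes tested, the values themselves did not overlap for 22.9% higher in CMs and 26.3% higher in EpiCs. The shares of a step sum to 100%, so that a higher share of one paralogue goes with a lower share of others. Reads of some abundant members, such as aldoaa and ldhba, were level between the libraries of a cell type, as described below. For aldoaa they were 2517 to 2561 estimated reads in EpiCs and 3055 to 3086 in CMs. How far such level reads set the shares was not tested. The share of hk2 in hexokinase was 18.0% to 32.1% in EpiCs and 0.6% to 1.4% in CMs. Of the muscle paralogues, pfkmb took 30.7% to 44.5% of phosphofructokinase in CMs against 3.3% to 12.5% in EpiCs, and pgam2 34.9% to 37.1% of phosphoglycerate mutase against 9.5% to 15.6%. Other muscle-named members had higher shares in EpiCs, as hk2 did: eno3 was at 42.4% to 44.4% of enolase in CMs and 50.1% to 56.6% in EpiCs, and aldoaa at 33.3% to 34.7% of aldolase in CMs and 67.3% to 77.1% in EpiCs. The share of pfkma, 0.2% to 0.9% in CMs and 0% to 14.3% in EpiCs, overlapped.

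Several steps had a paralogue with a much larger share in CMs. The share of gpib was 41.0% to 42.8% in CMs and 3.9% to 8.1% in EpiCs, and that of pkmb was 15.0% to 21.7% against 0.6% to 2.3%. For tpi1a it was 28.2% to 32.7% against 6.9% to 10.1%. In aldolase, aldoab took 30.0% to 31.6% in CMs against 9.4% to 15.1% in EpiCs, and aldocb 33.8% to 36.6% against 13.6% to 18.8%. In lactate dehydrogenase, ldha took 56.3% to 57.2% in CMs and 36.2% to 39.5% in EpiCs, and ldhba 42.2% to 43.3% in CMs and 60.2% to 63.6% in EpiCs. Among transporters, slc2a12 held 48.8% to 57.9% of the EpiC sum and 17.6% to 25.0% of the CM sum, and the liver phosphofructokinase pfkla 24.3% to 33% against 6.4% to 9.6% of its step.

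**Figure D3:**
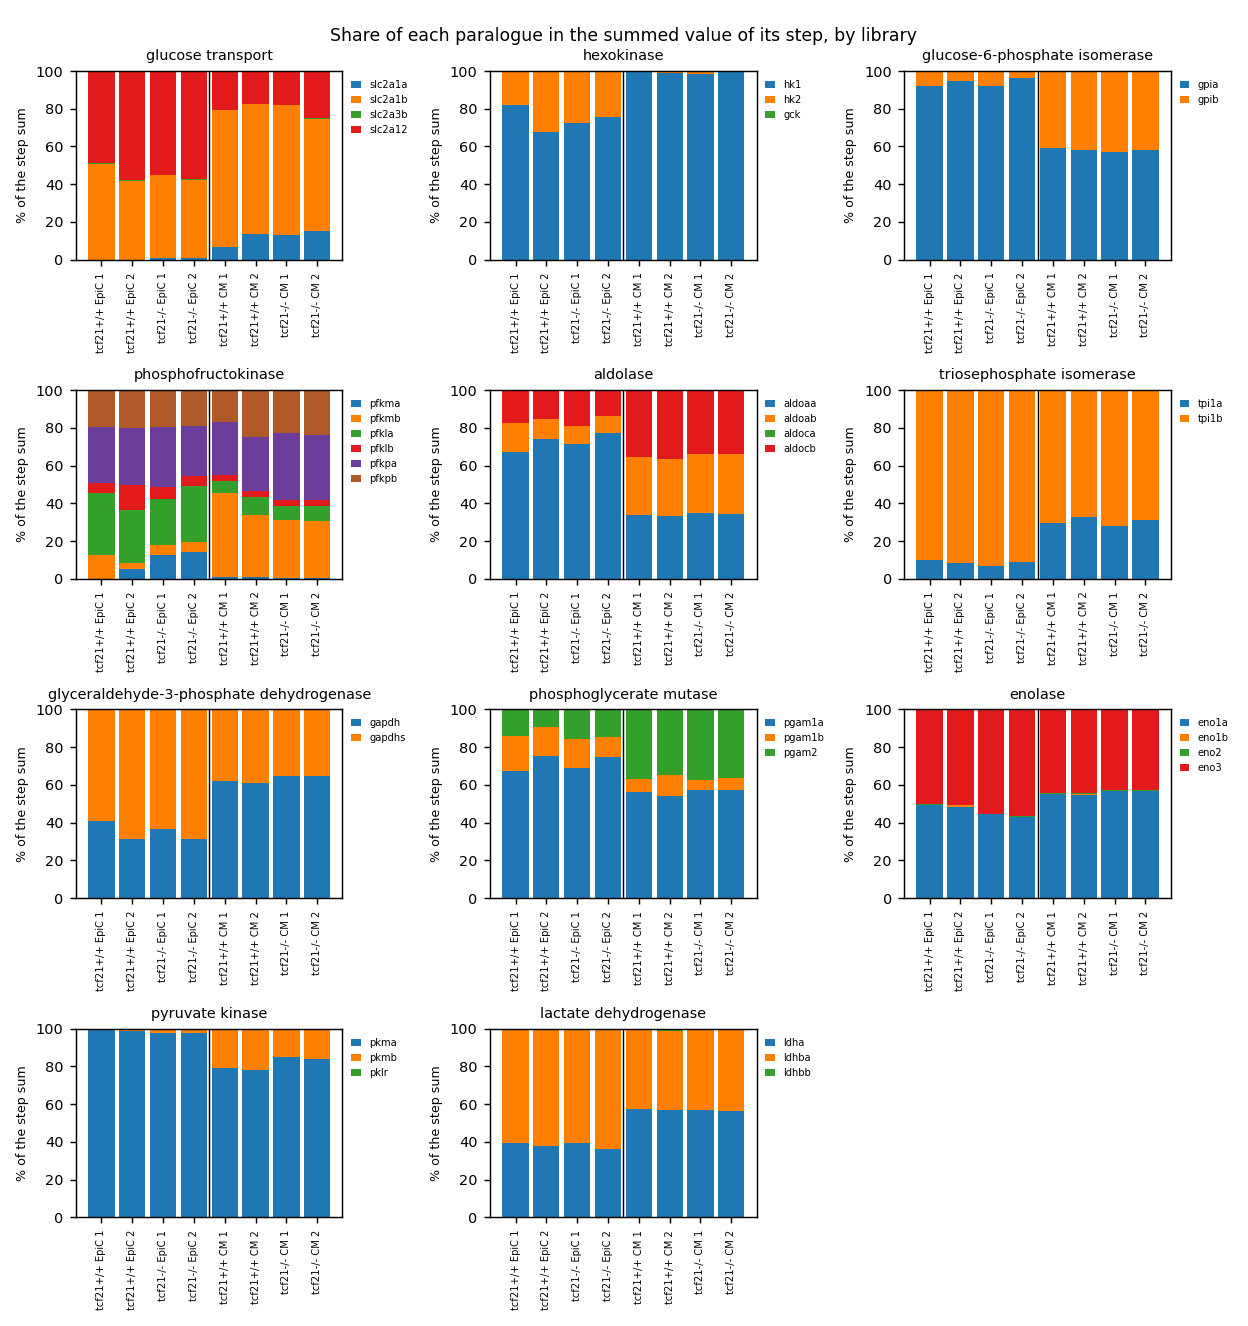
Share of each paralogue, in percent, in the summed value of its step for each of the 8 libraries, in the 11 steps with several members. The black line parts EpiC from CM libraries; gpib rises from at most 8.1% to at least 41.0% across it, and hk2 drops from at least 18.0% to at most 1.4%.

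In EpiCs, no member was called between tcf21-/- and tcf21+/+ hearts, where 0.193% of all genes were called, 0.0435% higher and 0.149% lower in tcf21-/-. An unadjusted P under 0.05 by limma was found for 4 of the 33 members and for 8.46% of all genes. The lowest adjusted P of a member was 0.138. The libraries of the genotypes did not overlap for 9 members higher and 7 lower in tcf21-/-, against 21.6% and 21.5% of all genes. The median log2 fold change of the members was -0.05 and that of all genes -0.01. The members furthest from 0 were lowly expressed in EpiCs. For slc2a1a, the values of 0 and 0 against 8 and 10 put tcf21-/- EpiCs at least 3.58-fold higher against the floor (limma adjusted P = 0.138). For pfkma, 0 and 40 against 169 and 252 gave a log2 fold change of 5.02 ± 1.41 (limma adjusted P = 0.312), which was 2.34 without the library at 0, tcf21+/+ EpiC replicate 1, and 7.70 without replicate 2. For pkmb, 11 and 25 against 46 and 36 gave 1.24 ± 0.44 (limma adjusted P = 0.467).

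The fourth was the platelet phosphofructokinase pfkpa, at 0.56 ± 0.23 (limma adjusted P = 0.573), whose 4 EpiC values did not overlap by genotype. The fast skeletal muscle markers were also higher in both tcf21-/- EpiC libraries (2974 and 4122 in sum, against 1833 and 2250). So were the summed markers of neurons (668 and 985 against 320 and 359), of endocardium and endothelium (5273 and 5464 against 3882 and 5022) and of smooth muscle (10794 and 11848 against 9929 and 9947). Single markers within these lists differed in direction. Of the neuron markers, elavl4 was higher (924 and 618 against 223 and 235) and snap25a lower (61 and 30 against 76 and 108). In endocardium and endothelium, fli1a, nfatc1, tie1 and pecam1 were higher without overlap, and egfl7 was lower. Of the smooth muscle markers, myh11a was higher without overlap, while acta2, tagln and cnn1b overlapped. Of the CM markers, the natriuretic peptide gene nppa was lower in tcf21-/- EpiCs, at 127 and 80 against 740 and 618 (log2 fold change -2.73 ± 0.27, limma adjusted P = 0.0192). No other CM marker was called, with log2 fold changes from -1.71 (myh6) to 0.32 (myh7). The summed CM markers overlapped, at 8805 and 9559 in tcf21-/- EpiCs against 7724 and 12534 in tcf21+/+ EpiCs. The part of these markers in the EpiC values of the members was not tested.

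In CMs, again no member was called between genotypes, against 0.367% of all genes, 0.249% higher and 0.118% lower in tcf21-/-. By limma, 3 members and 12.2% of all genes reached an unadjusted P under 0.05. The lowest adjusted P of a member was 0.365. The genotypes did not overlap for 6 members higher and 8 lower in tcf21-/-, against 20.6% and 19.3% of all genes. The median log2 fold change was -0.28 over the members and 0 over all genes, with 24 of 33 members below 0. The 3 members were pgam1b at -0.91 ± 0.35 (limma adjusted P = 0.365), gapdhs at -0.44 ± 0.18 (limma adjusted P = 0.393) and slc2a12 at 0.60 ± 0.25 (limma adjusted P = 0.393). For pkmb, 762 and 713 in tcf21-/- against 1526 and 1114 in tcf21+/+ CMs gave -0.82 ± 0.44 (limma adjusted P = 0.466). The macrophage markers, higher in both tcf21-/- CM libraries, moved with this contrast. The smooth muscle markers, at 2419 and 2836 in sum in tcf21-/- CMs against 3533 and 4634 in tcf21+/+ CMs, moved the other way. The part of either in these values was not tested.

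**Figure D4:**
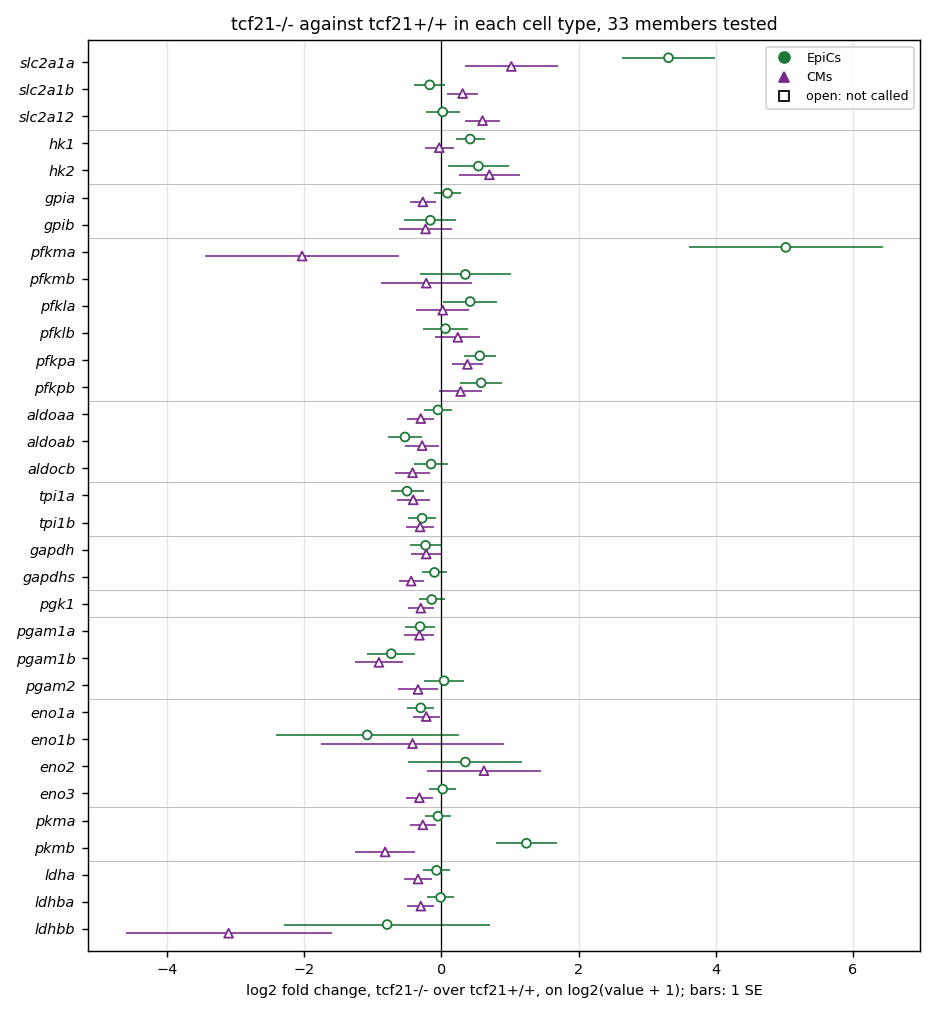
Log2 fold change of tcf21-/- over tcf21+/+ on log2(value + 1) for the 33 members tested, with bars of 1 SE, in EpiCs (circles) and CMs (triangles). All marks are open since no member was called; pfkma and pkmb lie right of 0 in EpiCs (5.02 and 1.24) and left of 0 in CMs (-2.03 and -0.82).

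The size of the median in CMs depended on tcf21+/+ CM replicate 1, and leaving out the scaling moved the members and all genes together. Without that replicate the median of the members was -0.02, with 23 of 33 below 0. Without tcf21+/+ CM replicate 2 it was -0.54, with gapdhs at -0.64 and eno3 at -0.60. In estimated reads without scaling, with all libraries, the median of the members was 0.02, with 16 of 33 below 0. The median of all genes was then 0.27, against 0 in the deposited values, where that of the members was -0.28. The median of the members thus lay below that of all genes with either scaling. In aldoaa, tcf21+/+ CM replicate 1 held the highest value of the 4 CM libraries, 4805 against 3277, 3495 and 2979, but the estimated reads were 3055, 3086, 3063 and 3059, with an SD of 13.9 where counting alone would give 55.4. The same held for ldhba, at 3007, 3034, 3004 and 3018 reads, and for pgk1, at 3573, 3618, 3575 and 3597 reads. Deposited values of these genes therefore followed the factor of the library, which was worth 1.573 for 1 read in tcf21+/+ CM replicate 1.

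Of the 18 members with at least 2000 estimated reads on average in CMs, 8 varied less between the 4 CM libraries than counting would give (variance of the reads under their mean), as did 11.1% of the 814 genes at that level. With pgam2, at 500 to 2000 reads, 9 members did so in CMs, and 2, aldoaa and ldhba, in EpiCs. The highest reads were 1.04 times the lowest in the median of the 18 members, 1.27 times in the median of all genes at that level, and 1.46 times for the library totals. Not all abundant members were so even: pfkpa ran from 1957 to 4368 reads, hk1 from 3770 to 5610, and slc2a1b, at a lower mean, from 889 to 1987, each lowest in the library with fewest reads. What held the reads of the even genes level was not tested. The ratio of the tcf21+/+ to the tcf21-/- CM mean was 1.25 in values and 1 in reads for aldoaa, pgk1 and ldhba. For pkmb it was 1.79 in values and 1.44 in reads, and for pgam1b 1.89 and 1.58.

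**Figure D5:**
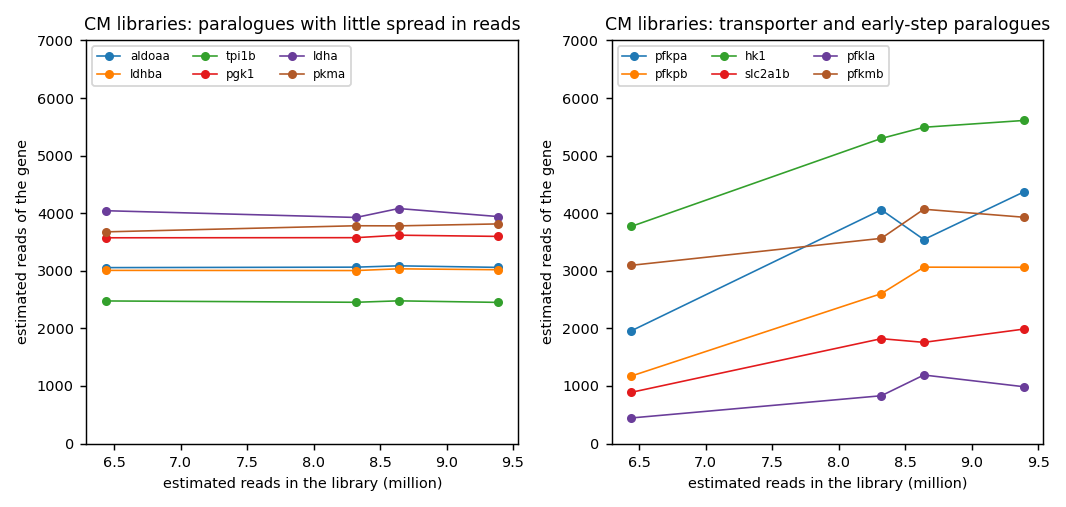
Estimated reads of 12 members in the 4 CM libraries (vertical axis) against the estimated reads of each library in M (horizontal axis). In the left panel aldoaa, ldhba, tpi1b, pgk1, ldha and pkma stay level from 6.44 M to 9.39 M reads; in the right panel hk1, slc2a1b and the 4 phosphofructokinase genes are lowest in the library with fewest reads.

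Genes that feed, control or drain the pathway were taken from 8 lists, of which 76 rows were tested. In tcf21+/+ hearts 14 were higher and 31 lower in EpiCs, with a median log2 fold change of -0.29, and in tcf21-/- hearts 15 and 32, with a median of -0.70. Of all genes, 22.9% were higher and 18.8% lower in tcf21+/+ hearts, and 21% and 18% in tcf21-/- hearts. By limma, 0 were called between genotypes, with 6 and 3 of the 76 at an unadjusted P under 0.05 in EpiCs and CMs. Genes of glycogen metabolism, for synthesis and breakdown alike, were largely lower in EpiCs, 9 of 13 with 1 higher in either genotype. The muscle glycogen phosphorylase pygmb was at 837 and 587, and 1091 and 1348, in tcf21+/+ and tcf21-/- EpiCs, and at 12248 and 9335, and 9948 and 8547, in CMs. The UDP-glucose pyrophosphorylase ugp2a, which makes the donor for glycogen, ran from 0 to 25 in EpiCs and from 1238 to 1678 in CMs. Its paralogue ugp2b ran from 1433 to 1643 in EpiCs and from 1657 to 2227 in CMs and was not called in either genotype. The glycogenin gene gyg1b, for the protein that primes glycogen, ran from 13 to 30 in EpiCs and from 260 to 489 in CMs. Of 14 genes listed for the entry of pyruvate into mitochondria, 10 were lower in EpiCs in tcf21+/+ and 11 in tcf21-/- hearts, with none higher. Those lower included the mitochondrial pyruvate carrier subunits mpc1 (-1.40 ± 0.23) and mpc2 (-1.13 ± 0.21). The list mixed carriers and pyruvate dehydrogenase subunits with kinases and phosphatases that regulate this enzyme. Its counts therefore give no direction for the process. The 3 genes of lactate transport tested were all called lower in EpiCs in tcf21+/+ hearts, and 2 in tcf21-/- hearts. The monocarboxylate transporter slc16a7 led them in tcf21+/+ hearts (-6.13 ± 1.12, limma adjusted P = 0.00236).

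Gluconeogenesis did not share this direction. Of its 4 genes tested, 2 were higher in tcf21+/+ EpiCs and none lower, and the mitochondrial phosphoenolpyruvate carboxykinase pck2 was higher by 2.94 ± 0.44 (limma adjusted P = 0.000849). Of 11 genes that control glycolysis, 4 were higher in EpiCs and 4 lower in tcf21+/+ hearts, against 3 higher and 4 lower in tcf21-/- hearts. The ADP-dependent glucokinases adpgk (5.21 ± 0.94) and adpgk2 (5.27 ± 1.07), which phosphorylate glucose with ADP, were higher in EpiCs of tcf21+/+ hearts. In tcf21-/- hearts adpgk was higher by 3.61 ± 0.94, whereas adpgk2, at 2.92 ± 1.07, was not called (limma adjusted P = 0.0592). Of 7 pentose phosphate genes tested, 2 were higher in tcf21+/+ and 3 in tcf21-/- EpiCs, with none lower. Of 5 other sugar transporters tested, 3 were higher and 1 lower in tcf21+/+ EpiCs, against 2 and 2 in tcf21-/- EpiCs. The 10 rows of that list in the table summed to 2026 to 3350 in EpiCs and to 431 to 723 in CMs. The sodium-coupled sugar transporter gene slc5a1 was at 946 and 684 in EpiCs of tcf21+/+ and 1485 and 2053 in EpiCs of tcf21-/- hearts, and at 0, 1, 0 and 0 in the CM libraries. It thus showed the reverse pattern of slc2a1a.

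Among regulators known to act on glycolytic or mitochondrial genes, 2 of 19 rows were higher in EpiCs and 4 lower in tcf21+/+ hearts, and 4 were higher and 4 lower in tcf21-/- hearts. Over all genes the shares were 22.9% higher and 18.8% lower in tcf21+/+ and 21% and 18% in tcf21-/- hearts. The hypoxia-inducible factor gene hif1aa was at 37 and 1, and 10 and 56, in tcf21+/+ and tcf21-/- EpiCs, and at 2194 and 1999, and 2046 and 1969, in CMs (-7.91 ± 1.21, limma adjusted P = 0.000981), whereas its paralogue hif1ab ran from 3159 to 3956 in EpiCs and from 2858 to 4993 in CMs. The mitochondrial coactivator gene ppargc1a was at 10 to 75 in EpiCs and 747 to 1141 in CMs, and esrra, a nuclear receptor it works with, was lower in EpiCs by a log2 fold change of -3.50 ± 0.45. The myca gene, a Myc paralogue, was higher in EpiCs by 2.05 ± 0.29.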

How the data were processed

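Deposited signal was, per the authors' methods and the values, the read count of each gene scaled by 1 factor for each library, then rounded. By the methods and the submitters' processing notes, single-end reads of full-length cDNA were trimmed (Trimmomatic 0.39), aligned to danRer11 (STAR 2.7.3a), counted per gene (featureCounts 1.6.5), leaving out reads on several places or genes, and handled with DESeq2 1.26.0. Reads of near-identical paralogues may thus be undercounted. Whether duplicate reads were removed is not given in the sources used here. All 8 value columns were mapped by their labels, so 0 were left out.

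The worth of 1 read was found from regular steps among low values, which gave estimated reads but not whole ones, so no count test was run. The 16077 of 21286 genes whose mean value reached 10 were fitted as log2(value + 1) with limma 3.58.1 in R 4.3.3 (eBayes, abundance trend), 8 libraries in 1 fit, no block, two-sided. Calls took a Benjamini-Hochberg adjusted P under 0.05 and an absolute log2 fold change of at least 0.59. The fit and the step scan were tested on simulated data. Sums, shares and plots used Python 3.11.15, pandas 2.3.3 with numpy 2.4.6, and matplotlib 3.10.9 for drawing. Alternatives were the pseudocount, the filter, other scalings, no trend, library weights, a replicate block, only the groups compared and leaving out each library, where a lone library is assumed to vary like the other groups. Estimated reads without scaling were added after seeing the data.

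The members and the lists were chosen with earlier results of these data known. All members in the table are named, with every library's value for those called. Of other lists, at most 5 called genes per direction were named by size, and mpc1, mpc2, pygmb, ugp2b, hif1ab, esrra, myca, nppa and pvalb2 after their values were seen. Listed names that matched no row were not analysed here. 1 gene of the pathway lists is not reported here.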

Additional observations from a re-analysis of the deposited data

Results flagged for a closer look

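For 2 members the genotypes differed in opposite directions in EpiCs and CMs with no overlap in either, as did 4.82% of all genes tested. For pfkma, both tcf21-/- libraries exceeded both tcf21+/+ libraries in EpiCs (169 and 252 against 0 and 40) and lay under them in CMs (26 and 20 against 83 and 112), and the interaction of genotype and cell type had a log2 fold change of 7.05 ± 1.99 (limma adjusted P = 0.392). For pkmb, the EpiC values were 46 and 36 against 11 and 25, the CM values 762 and 713 against 1526 and 1114, and the interaction was 2.06 ± 0.62 (limma adjusted P = 0.439). Neither passed the adjustment: by limma 0 genes were called for the interaction, 1137 of 16077 had an unadjusted P under 0.05, and of the members 3, the third being slc2a1a at 2.29 ± 0.96 (limma adjusted P = 0.682).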

How the results depend on the processing

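The counts of members called lower in EpiCs stayed within 1.5 times the main counts under every alternative run, and no member changed sign while called. The exceptions among counts of called members were few. Members higher in tcf21-/- EpiCs than tcf21-/- CMs were 2 instead of 1 with a pseudocount of 8 and with only the groups compared, pfkma being added, and 1 to 2 when a library was left out. With library quality weights, 1 member, slc2a1a, was higher in tcf21-/- EpiCs (limma adjusted P = 0.0321), where the main count was 0. Members lower in tcf21-/- CMs were 0, and 0 to 2 when a library was left out. The range reached 2, gapdhs and eno3, without tcf21+/+ CMs replicate 2, where 961 genes were called higher and 397 lower, against 40 and 19 with all libraries. The cause was not tested. Over all alternatives, genes called between genotypes ran from 0 to 48 higher and 0 to 85 lower in tcf21-/- EpiCs (7 and 24 with the settings reported), from 0 to 961 and 0 to 397 in CMs, and from 0 to 16 and 0 to 107 for the interaction (0 and 0). Calls of aldoaa and ldhba were lost in both genotypes with quantile normalization. In tcf21-/- hearts, leaving out a library of either tcf21-/- group lost 4 to 5 of the 28 calls, among pfkla, aldoaa, pgam1b, eno2 and ldhba.

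Differences between replicates 2 and 1, over all genes tested, correlated between groups at -0.081 to 0.067. Such correlations cannot show whether same-numbered libraries shared hearts or sorting sessions, since noise in low values also lowers them. With the replicate block, members called lower in EpiCs were 27 in tcf21+/+ hearts and 27 in tcf21-/- hearts, no member was called between genotypes, and of all genes 1 was higher and 8 lower in tcf21-/- EpiCs, against 7 and 24, and 1 higher and 0 lower in tcf21-/- CMs. With 2 libraries a group and 4 residual degrees of freedom, differences between genotypes smaller than the spread between libraries were not detectable.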

Other observations

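Of the 33 members tested, 5 lie on chromosome 23, as does tcf21 (31554269 to 31555696, GRCz11), so that their alleles may be inherited with the mutated locus. The glucose transporter gene slc2a12 lies 52.6 kb from tcf21, pfkma lies 3.98 Mb away, eno1a 8.88 Mb, slc2a1a 9.34 Mb and eno3 13.1 Mb. Of these 5, pfkma and slc2a1a were among the 4 members with an unadjusted P under 0.05 between genotypes in EpiCs, and slc2a12 was among the 3 in CMs. Of the 618 genes tested on chromosome 23, 59 (9.55%) had an unadjusted P under 0.05 by limma in EpiCs and 101 (16.3%) in CMs, against 8.46% and 12.2% of all genes tested, and 2 (0.324%) and 5 (0.809%) were called, against 0.193% and 0.367%. Linkage to the tcf21 allele and the loss of Tcf21 cannot be told apart in this design, and its part in these values was not tested.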
